A study of Mus musculus with 6 samples.

Results

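Egr1, Egr2, Egr3, Nr4a1, Klf2, Klf4, Klf6 and Klf9 encode transcription factors of the EGR, NR4A and Krüppel-like (KLF) families. They were taken by gene symbol: every probe set annotated to one of these symbols was used, on all 6 arrays. That gave 8 of the 12393 genes on the array and 18 of its 22690 probe sets. Of these 18, 15 exceeded the median signal of their array at least once and were tested among 13101 such probe sets. The other 3 all belong to Klf9.

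The cells were bone marrow-derived macrophages from C57BL/6J mice, grown out of marrow in L929-conditioned medium. They came from wild-type mice or from mice lacking IκBβ, an inhibitor of NF-κB encoded by Nfkbib, and were left without LPS (0 h) or given bacterial LPS at 1 µg/ml for 1 h or 5 h. There was 1 array for each genotype and time. The labels name no Cre, transgene or kind of allele, and do not say whether 1 animal gave several arrays. With 1 array per group, a difference between 2 arrays has no replicate check and is given as a value. The only tests are of changes shared across arrays, whose error is the departure of the 6 arrays from additive genotype and time effects and not the spread between animals.

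EGR proteins are zinc-finger factors of the immediate early class: signals through ERK reach serum response factor and its Elk partners on CArG boxes, and the genes are transcribed within minutes without new protein synthesis. Egr2 and Egr3 are related to Egr1 and bind the same GC-rich site. Nr4a1 (Nur77) is an orphan nuclear receptor made in the same early window. KLF proteins bind GC-rich and CACCC sequences through zinc fingers of their own: Klf2 is known for holding macrophages and T cells in a resting state and is driven by ERK5 and MEF2, Klf4 is linked to alternative macrophage activation, Klf6 to NF-κB target genes, and Klf9 is a glucocorticoid-inducible repressor.

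Nfkbib checked the labels. Its signals were 477, 3330 and 5007 in wild-type cells and 30.5, 136 and 56.1 in knockout cells at 0 h, 1 h and 5 h. The wild-type arrays carried RNA of male mice and the knockout arrays of female mice: Xist read 52.1 to 80.4 in wild-type cells and 2149 to 5634 in knockout cells, and the Y-linked Eif2s3y 570 to 860 and 0.896 to 10.7. Every genotype difference below is therefore also a difference of sex, and genotype and sex cannot be told apart. All 10 macrophage markers exceeded an array median, with summed signals of 93451 to 110685. None of the 8 T and NK cell genes probed did, with sums of 80 to 156. The B cell list (3 of 7 genes above a median; Pax5 under the floor on every array), most of it the immunoglobulin gene Ighm (3371 at 0 h and 268 at 5 h in wild-type cells), summed to 3771, 2646 and 472 in wild-type cells and 3935, 2873 and 460 in knockout cells at 0 h, 1 h and 5 h, so it was lowest at 5 h, as were Egr2, Klf2 and Klf9. In bulk RNA, fewer cells of a type and less RNA per cell cannot be told apart, and the part of these cells in the results was not tested. Neutrophil genes summed to 1276 to 2582, with S100a8 rising (3.15) and Mmp8 falling (−1.47) at 5 h, those of fibroblasts to 144 to 393, dendritic cells to 275 to 454, erythroid cells to 149 to 214 and endothelial cells to 160 to 378. The mast cell and basophil list summed to 101 at 0 h and 696 at 5 h in wild-type cells and to 114 and 915 in knockout cells, and Hdc was its 1 gene above an array median.

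RefSeq (GRCm38.p6) lists starts for 6 of the 8 genes: Egr2, Nr4a1, Klf2, Klf4, Klf6 and Klf9. The sequences that follow are those of Egr2, Nr4a1 and Klf2, highest at 1 h in both genotypes, and of Klf9, whose brightest probe set only lost signal. Klf4 was also highest at 1 h in both genotypes, but its sequence is not printed. The Klf2 rise at 1 h was not called, and a link between sequence and course was not tested. The 250 bases before each of 10 listed starts, 5 of them of Egr2, were searched on both strands for 10 motifs, and matches are in capitals. The first 3 lines give only 30 bases around a site. For Egr2, another listed start lies upstream of those shown. All 5 sequences lie on the + strand and run 5′ to 3′.
Egr2, chr10:67537790-67537819, CArG box and a CRE half-site: cctcagtCCATATATGGgcagcgaCGTCAc
Egr2, chr10:67537484-67537513, CArG box before another start: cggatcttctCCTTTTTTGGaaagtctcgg
Nr4a1, chr15:101266775-101266804, CRE half-site and EGR site: tgCGTCAgtggCGCCCCCGCccctctccat
Klf2, chr8:72318812-72319061: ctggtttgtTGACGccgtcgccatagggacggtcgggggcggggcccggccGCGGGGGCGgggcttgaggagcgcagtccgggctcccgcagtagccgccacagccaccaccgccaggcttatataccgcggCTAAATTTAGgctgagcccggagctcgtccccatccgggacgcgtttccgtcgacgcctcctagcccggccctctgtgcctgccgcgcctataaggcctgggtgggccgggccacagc
Klf9, chr19:23140976-23141225: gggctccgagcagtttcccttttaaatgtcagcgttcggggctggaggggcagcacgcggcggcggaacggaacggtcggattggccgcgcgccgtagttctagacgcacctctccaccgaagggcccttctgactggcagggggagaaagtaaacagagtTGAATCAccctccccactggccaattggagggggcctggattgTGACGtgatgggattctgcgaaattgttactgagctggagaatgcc

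In Egr2 the CArG box, the site of serum response factor, lay 72 to 63 bases before the start in both windows shown. It occurs in 1.47% of the 250-base windows before all 32851 listed starts. Nr4a1 held 4 copies of the CRE half-site TGACG (at least 1 in 17.8% of windows) and, 60 to 52 bases before its start, the EGR site GCGGGGGCG (2.57%), read on the opposite strand. Klf2 held a MEF2 site 118 to 109 bases before its start (2.92% of windows), an EGR site GCGGGGGCG 199 to 191 bases before it and a CRE half-site. Klf9 had an AP-1 site TGANTCA 89 to 83 bases before its start (6.75%) and a CRE half-site. Klf4 held an EGR site GCGGGGGCG and a CRE half-site, and in the Klf6 window none of the 10 motifs matched. The half-site TGACG is part of the full CRE TGACGTCA (1.55%) and can overlap it. The EGR site GCGTGGGCG (0.536%), the full CRE, the NBRE AAAGGTCA (1.34%), the CACCC box CCACACCC (3.2%) and the NF-κB site (3.9%) matched in none of the member windows. These letters describe the windows and are not evidence of binding.

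Signals are MAS5 intensities. Changes are on the log2 scale, with a floor of 18.2 (the 25th percentile of all signals) in place of lower signals; where a signal lay under it, the change is a bound. A fitted change is the log2 difference shared by both genotypes, with its SE and limma's Benjamini-Hochberg adjusted p over all 13101 probe sets, called under 0.05. At 1 h against 0 h, 8 of the 15 member probe sets were higher (Egr1, both of Egr2, Nr4a1, 1 of 2 for Klf4 and all 3 of Klf6), 1 was lower (Klf9) and 6 did not pass. Of all probe sets 5.32% were called higher and 4.6% lower. At 5 h against 0 h, 4 were higher (Egr1 and Klf6), 7 lower (both of Egr2, Klf2 and 4 of Klf9) and 4 did not pass, beside 20.8% higher and 49.8% lower among all. Between 1 h and 5 h, 11 of 15 fell and none rose, beside 41.8% called lower and 19.0% called higher. The member median was 1.41 at 1 h, −0.126 at 5 h and −1.70 from 1 h to 5 h, and that of all probe sets −0.17, −0.48 and −0.32. The change to 1 h and the change from 1 h use the same 1 h arrays, and so are not independent.

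The values are on a scale that moved with time. The authors' arrays share a trimmed mean of 500.2 to 500.3, while their medians fell from 113.4 and 117 at 0 h to 70.7 and 65.2 at 5 h. Centring each array on its median moved the median change of all probe sets at 5 h from −0.48 to 0.28, and quantile normalization moved it to −0.12. Among calls at 5 h, 29.4% were rises as deposited, 62.8% after centring and 44.0% after quantile normalization. At 1 h these shares were 53.6%, 70.7% and 63.9%, and from 1 h to 5 h 31.2%, 63.5% and 46.1%. A member is said to have risen or fallen on the deposited scale, and the members whose call at 5 h depends on the scaling are named where they are described. Where 1 array was left out, 1 residual degree of freedom remained, and calls at 1 h over all probe sets became fewer. The time of that array then had an array of 1 genotype only, so a change at that time could not be checked in both genotypes.

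**Figure D1:**
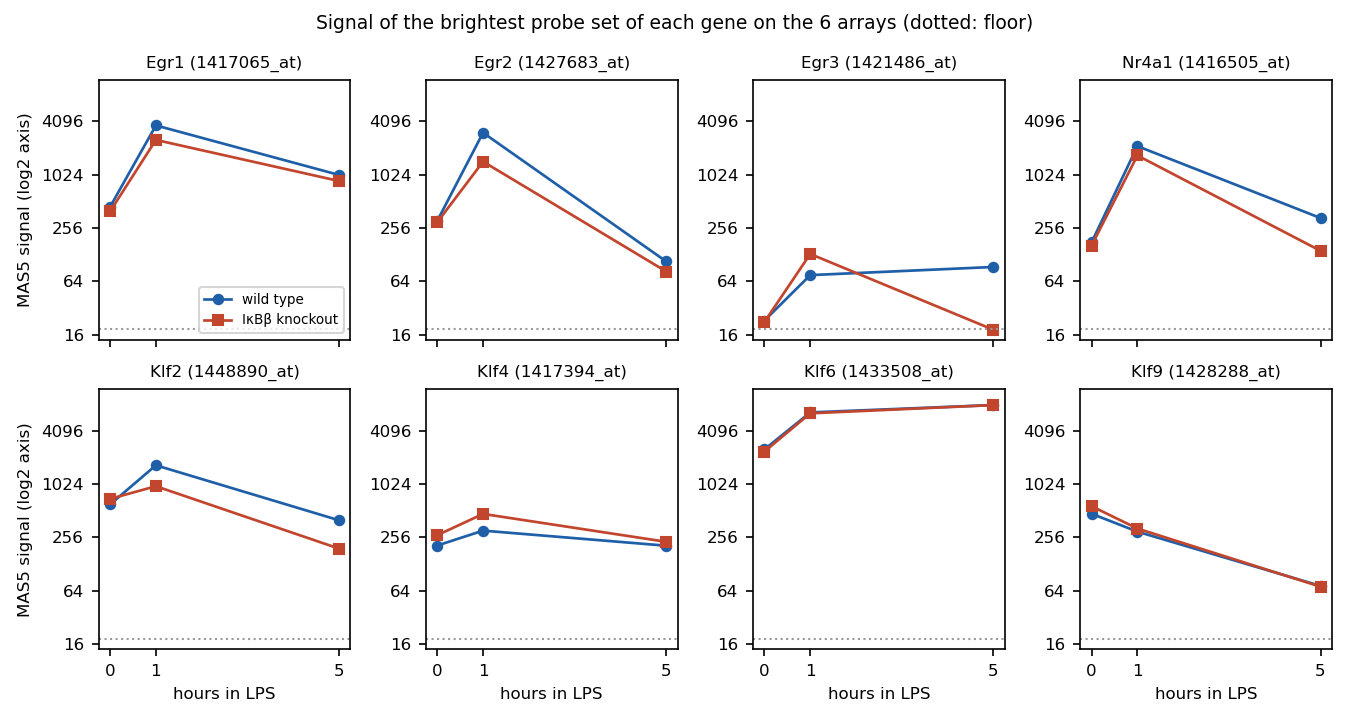
MAS5 signal (log2 axis) of the brightest probe set of each of the 8 genes against hours in LPS, with 1 array per point, wild type as blue circles and IκBβ knockout as red squares; the dotted line is the floor of 18.2. Egr1, Egr2 and Nr4a1 peaked at 1 h in both genotypes, Klf6 stayed high at 5 h and Klf9 was lowest at 5 h.

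**Figure D2:**
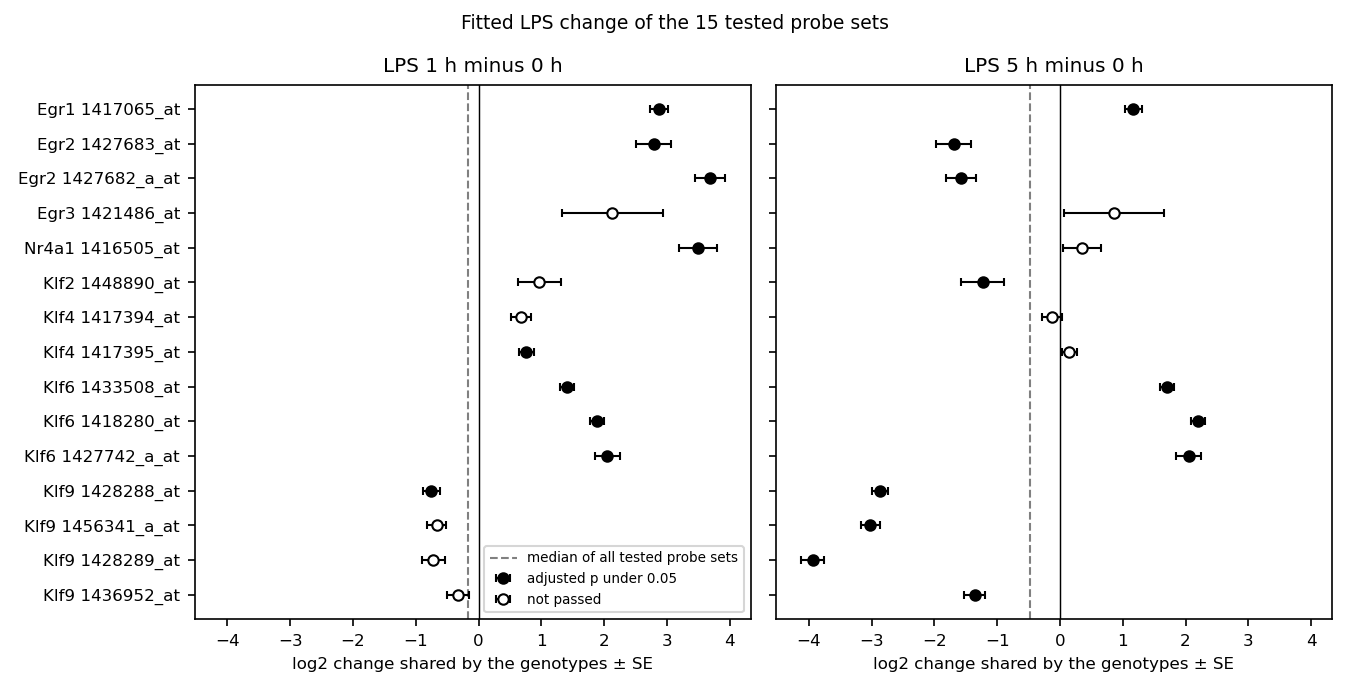
Fitted log2 change ± SE shared by the genotypes for the 15 tested probe sets at 1 h (left) and 5 h (right) against 0 h; filled points have an adjusted p under 0.05, and the dashed line is the median of all 13101 probe sets (−0.17 and −0.48). The Egr2 probe sets lie at 2.79 and 3.69 at 1 h and at −1.69 and −1.58 at 5 h, while those of Klf6 lie to the right and those of Klf9 to the left at both times.

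Egr1 rose at 1 h and was lower again, but not back at its 0 h signal, at 5 h. Its probe set (1417065_at) read 443, 3683 and 1015 in wild-type cells and 394, 2525 and 867 in knockout cells at 0 h, 1 h and 5 h. Both genotypes peaked at 1 h, and all 3 times kept their order in both. The 1 h signal was 8.32 times that at 0 h in wild-type cells and 6.41 times in knockout cells, a shared change of 2.87 (SE 0.14, adjusted p = 0.00362). At 5 h Egr1 was still higher than at 0 h by 1.17 (SE 0.14, adjusted p = 0.00292), 2.29 times in wild-type cells and 2.20 times in knockout cells, with 17.7% and 22.2% of the 1 h rise left. The fall from 1 h to 5 h was −1.70 (SE 0.14, adjusted p = 0.00164). After median centring the 5 h change was 1.93 and the fall −1.12, both still called, and 33.6% and 44.7% of the rise was left. With no filter on dim probe sets, the 1 h rise just missed the threshold (limma adjusted p = 0.05 as rounded).

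Egr2, the factor also called Krox20, rose at 1 h and then dropped below where it began. Probe set 1427683_at read 308, 3047 and 107 in wild-type cells and 297, 1437 and 82.4 in knockout cells. Probe set 1427682_a_at read 154, 2722 and 59.6 in wild-type cells and 119, 1116 and 34.2 in knockout cells. In each genotype, and for both probe sets, 1 h was the highest and 5 h the lowest value, and no signal was under the floor. The shared rise at 1 h was 2.79 (SE 0.28, adjusted p = 0.0136) and 3.69 (SE 0.24, adjusted p = 0.00585). By 5 h the signals stood at 34.9% and 38.6% of 0 h in wild-type cells and at 27.7% and 28.8% in knockout cells, shared falls of −1.69 (adjusted p = 0.00672) and −1.58 (adjusted p = 0.00552). From 1 h to 5 h the fall was −4.48 (SE 0.28, adjusted p = 0.00094) and −5.27 (SE 0.24, adjusted p = 0.000787). The second of these was the 4th lowest of 13101 and the first the 33rd. After median centring the 5 h falls were −0.92 and −0.82 and after quantile normalization −0.96 and −0.90, all with an adjusted p under 0.05. The 5 h fall of 1427683_at had an adjusted p of 0.0555 without the wild-type 5 h array, and its 1 h rise 0.0618 without the wild-type 1 h array and 0.0556 without either 5 h array. With no filter on dim probe sets, its calls at 5 h (adjusted p = 0.0566) and 1 h (0.0922) and the 1 h call of 1427682_a_at (0.069) were lost.

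The course of Egr2 was uncommon among all tested probe sets, and less so among those that rose at 1 h. At least 2-fold above 0 h at 1 h in both genotypes were 531 probe sets, 4.05% of all, and 8 of the 15 members. Both Egr2 probe sets, and no other member, were also below 0 h at 5 h in both genotypes. So were 42 probe sets in all, 0.321% of those tested and 7.91% of the 531. Under the other scalings, floors and filters that count of members was 2 each time.

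Egr3 was dim and followed different courses in the genotypes. Its probe set (1421486_at) read 23.0, 75.0 and 92.7 in wild-type cells and 22.2, 130 and 18.1 in knockout cells. The knockout 5 h signal lay under the floor and both 0 h signals just above it. The 1 h signal was 3.26 times that at 0 h in wild-type cells and 5.87 times in knockout cells, with a fitted change of 2.13 whose SE of 0.80 left it uncalled (adjusted p = 0.169). The changes at 5 h (0.86, adjusted p = 0.378) and from 1 h to 5 h (−1.26, adjusted p = 0.231) did not pass either. In knockout cells the 5 h change was −0.28 as deposited, 0.56 after median centring and 0.19 after quantile normalization. Without the knockout 5 h array the fitted 5 h change rested on the wild-type 5 h array alone and was 2.22. Without the wild-type 5 h array it rested on the knockout 5 h array alone and was −0.49.

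Nr4a1 rose at 1 h and fell back by 5 h. It read 176, 2148 and 331 in wild-type cells and 162, 1685 and 141 in knockout cells on 1416505_at. The 1 h signal was 12.2 and 10.4 times that at 0 h, a shared change of 3.49 (SE 0.30, adjusted p = 0.0104). Leaving out the wild-type 1 h array gave an adjusted p of 0.0802, leaving out the knockout 1 h array 0.0948, and dropping the filter 0.0862. At 5 h the 2 genotypes lay on either side of their 0 h signal, at 1.88 times in wild-type cells and 0.868 times in knockout cells, and the shared change of 0.35 (SE 0.30) did not pass (adjusted p = 0.349). The split of the genotypes belongs to the deposited scale: after median centring the 5 h changes were 1.59 and 0.64, and after quantile normalization 1.45 and 0.57. The shared change passed after median centring (1.11, limma adjusted p = 0.0137) and after quantile normalization (1.01, limma adjusted p = 0.0247). Without the knockout 5 h array the fitted 5 h change rested on the wild-type 5 h array alone and was 0.85. The fall from 1 h to 5 h was −3.14 (SE 0.30, adjusted p = 0.00223).

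The 4 KLF genes followed different courses. Klf2 read 603, 1669 and 399 in wild-type cells and 697, 968 and 191 in knockout cells on 1448890_at. Both genotypes were highest at 1 h and lowest at 5 h. The 1 h signal was 2.77 times that at 0 h in wild-type cells but 1.39 times in knockout cells, and the shared change of 0.97 (SE 0.34) did not pass (adjusted p = 0.153). At 5 h Klf2 stood at 66.1% of its 0 h signal in wild-type cells and 27.4% in knockout cells, a shared fall of −1.23 (SE 0.34, adjusted p = 0.0313). That call was lost after median centring (−0.47, adjusted p = 0.196) and quantile normalization (−0.76, adjusted p = 0.0979), and without the knockout 0 h array (−0.67, adjusted p = 0.0701), the knockout 5 h array (−0.85, adjusted p = 0.171) or either 1 h array (adjusted p = 0.058). After centring, wild-type Klf2 at 5 h was 0.08 above 0 h. Without the filter the adjusted p was 0.149. The fall from 1 h to 5 h was −2.20 (SE 0.34, adjusted p = 0.00723), with an adjusted p of 0.0526 without the wild-type 1 h array and 0.0631 without the filter.

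Klf4 moved least of the 8 genes. Probe set 1417394_at read 207, 305 and 206 in wild-type cells and 271, 471 and 228 in knockout cells, and 1417395_at read 97.7, 161 and 115 in wild-type cells and 125, 216 and 130 in knockout cells. All 4 series were highest at 1 h. The shared change at 1 h was 0.76 (SE 0.12, limma adjusted p = 0.0381) on 1417395_at and 0.68 (SE 0.16, limma adjusted p = 0.0754) on 1417394_at. The call of 1417395_at was lost without any 1 of the 6 arrays, while its change stayed between 0.68 and 0.84. Neither probe set passed at 5 h (−0.13, adjusted p = 0.507, and 0.15, adjusted p = 0.33). Both were called higher at 5 h after median centring (0.64 and 0.91) and quantile normalization (0.52 and 0.88). The falls from 1 h to 5 h, −0.81 (adjusted p = 0.0137) and −0.61 (adjusted p = 0.0149), were not called after median centring (−0.22 and −0.02) or quantile normalization (−0.33 and −0.04).

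Klf6 rose and stayed up. Its brightest probe set, 1433508_at, read 2523, 6599 and 7998 in wild-type cells and 2387, 6446 and 7988 in knockout cells, so the genotypes nearly coincided at each time. Probe set 1418280_at read 1017, 3743 and 4807 in wild-type cells and 1181, 4379 and 5270 in knockout cells, and 1427742_a_at read 733, 3821 and 3543 in wild-type cells and 1018, 3348 and 3599 in knockout cells. In all 3, both LPS signals exceeded the 0 h signal in each genotype. The shared change was 1.41, 1.89 and 2.05 at 1 h (adjusted p = 0.00763, 0.00465 and 0.0124) and 1.70, 2.20 and 2.05 at 5 h (adjusted p = 0.000607, 0.000442 and 0.00151). Leaving out 1 array kept every 5 h call, but at 1 h each probe set missed the threshold without either 1 h array, with adjusted p up to 0.0883. So did 1433508_at without either 0 h array (0.063 and 0.0694), and 1427742_a_at without either 5 h array (0.0507) or the filter (0.0847). The difference between 5 h and 1 h did not pass for any of them (0.29, 0.31 and −0.00; adjusted p = 0.0733, 0.0636 and 0.993). All 3 were called higher at 5 h than at 1 h after median centring (0.88, 0.90 and 0.58), and the first 2 also without the filter (adjusted p = 0.0242 and 0.0291).

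Klf9 fell, and furthest at 5 h. Its brightest probe set, 1428288_at, read 473, 297 and 72.3 in wild-type cells and 575, 322 and 70.9 in knockout cells. Probe set 1456341_a_at read 405, 267 and 57.9 in wild-type cells and 402, 243 and 43.1 in knockout cells. Signals were lower at each later time in both genotypes, and at 5 h the first probe set stood at 15.3% of 0 h in wild-type cells and 12.3% in knockout cells. The shared falls at 5 h were −2.87 (SE 0.13, adjusted p = 0.000419) and −3.02 (SE 0.15, adjusted p = 0.000442). Probe set 1428289_at read 239, 174 and 11.8 in wild-type cells and 327, 164 and 14.4 in knockout cells; both 5 h signals are under the floor, so its −3.94 (adjusted p = 0.000419) is a bound. On 1436952_at the signals were 99.1, 93.2 and 45.6 in wild-type cells and 151, 102 and 49.7 in knockout cells, a fall of −1.36 (SE 0.17, adjusted p = 0.00304). These 4 calls held after median centring, at −2.10, −2.25, −3.17 and −0.60, and without each array in turn. At 1 h the 4 changes ran from −0.75 to −0.33 and only that of 1428288_at passed (SE 0.13, limma adjusted p = 0.0423). That call was lost without any 1 array, while the change stayed between −0.87 and −0.64.

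The 3 Klf9 probe sets that were not tested were dim. 1436763_a_at read 82.1, 41.6 and 11.8 in wild-type cells and 49.1, 55.9 and 4.87 in knockout cells. 1422264_s_at read 45.0, 26.8 and 3.66 in wild-type cells and 35.1, 16.4 and 14.8 in knockout cells. 1452723_at read 15.5, 31.8 and 19.4 in wild-type cells and 26.7, 2.69 and 12.1 in knockout cells. The first 2 were lowest at 5 h in both genotypes, and the third, near the floor, had no common order.

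**Figure D3:**
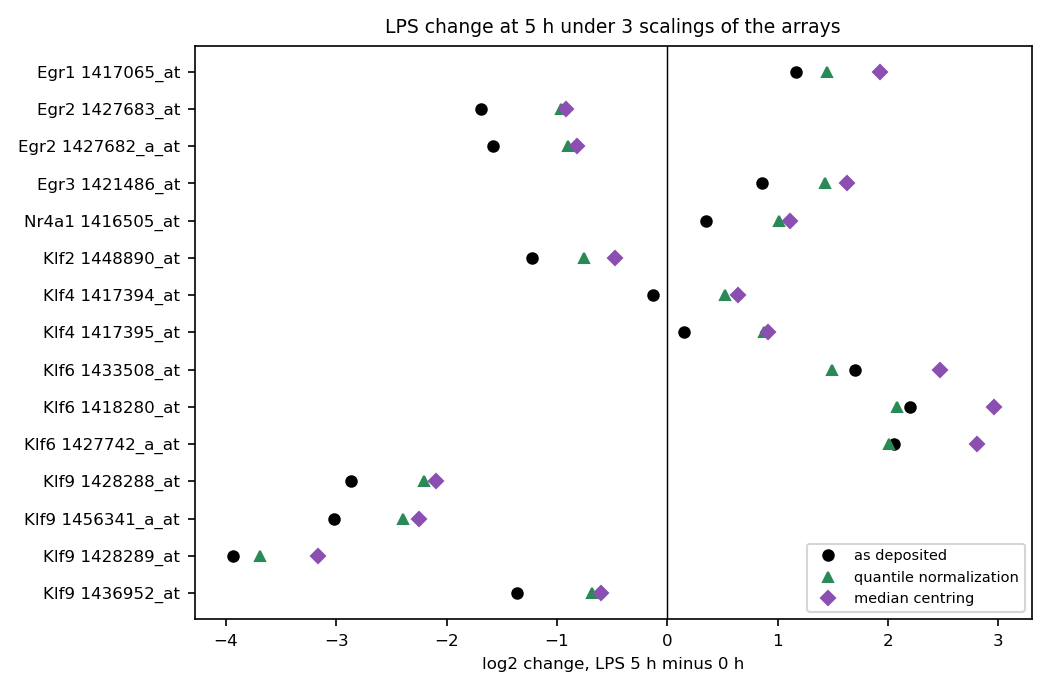
Log2 change at 5 h against 0 h of the 15 tested probe sets with the signals as deposited (circles), after quantile normalization (triangles) and after centring each array on its median (diamonds). The falls of Egr2 and Klf9 and the rises of Egr1 and Klf6 keep their sign under all 3 scalings, and Klf4 1417394_at crosses 0, from −0.13 to 0.52 and 0.64.

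Between genotypes, no member's difference passed the test. The shared knockout minus wild type difference was called for 0 of 15 member probe sets, beside 4 of all 13101 (0.0305%), all lower. The members' limma adjusted p was 0.536 or more. An unadjusted limma p under 0.05 was found for 3 of the 15 and for 1104 of the 13101. For whether the LPS change differed between genotypes, 0 of 13101 probe sets passed (0.0%; 472 had an unadjusted p under 0.05), and likewise 0 (0.0%; 1604) for whether the difference at 5 h departed from that at 0 h and 1 h. These interaction fits have 1 residual degree of freedom. What follows are therefore values of 2 arrays, to be read against the spread of all probe sets: knockout minus wild type had an SD over probe sets of 0.37, 0.42 and 0.48 at 0 h, 1 h and 5 h.

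At 0 h, no member was 2-fold lower in knockout cells (1.14% of all probe sets were), and differences ran from −0.38 for Egr2 1427682_a_at to 0.61 for Klf9 1436952_at. At 1 h, 1.92% of all probe sets were at least 2-fold lower in knockout cells, among them both of Egr2, at −1.08 and −1.29: the wild-type signal was 2.12 and 2.44 times that of the knockout. Both values lie outside the central 95% of all probe sets (−0.87 to 0.73). Klf2 was at −0.79, Egr1 at −0.54 and Nr4a1 at −0.35, inside that range, and Egr3 at 0.80, above it. At 5 h, 2.71% were at least 2-fold lower in knockout cells, among them Egr3 (−2.35), Nr4a1 (−1.23) and Klf2 (−1.06). All 3 lie outside the central 95% at this time (−1.03 to 0.90). After median centring Egr2 1427683_at at 1 h (−0.99) and Klf2 at 5 h (−0.94) were under 2-fold, while Egr2 1427682_a_at (−1.20), Egr3 (−2.23) and Nr4a1 (−1.12) were not. The Egr3 value is a bound, with wild type at least 5.08 times knockout, and Nr4a1 and Klf2 were 2.35 and 2.09 times higher in wild-type cells. Egr2 was at −0.38 and −0.80 at this time, and the Klf4, Klf6 and Klf9 probe sets lay between −0.43 and 0.17.

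**Figure D4:**
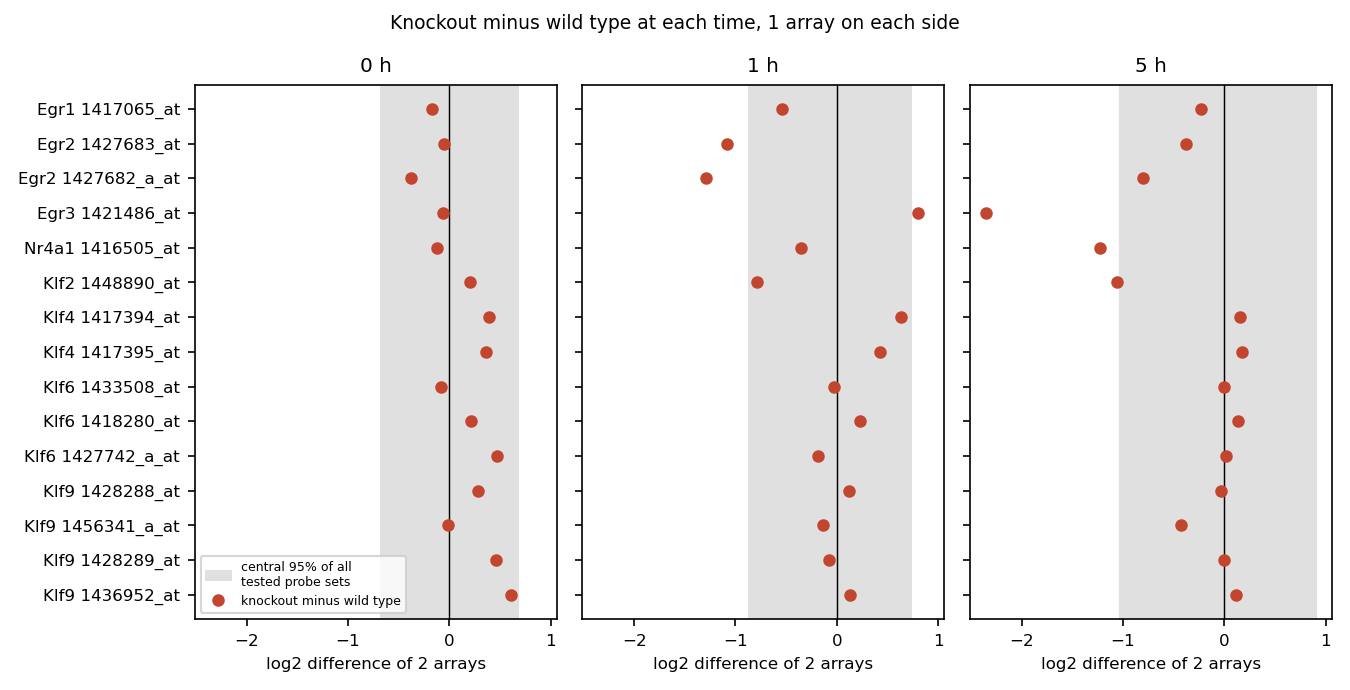
Knockout minus wild type, as the log2 difference of 2 arrays, for the 15 tested probe sets at 0 h, 1 h and 5 h; the grey band spans the central 95% of all 13101 probe sets at that time. Both Egr2 probe sets lie left of the band at 1 h, and Egr3, Nr4a1 and Klf2 at 5 h.

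In the other EGR, NR4A and KLF genes, 15 of 17 were on the array and 7 could be tested, each by its brightest probe set. Klf7 rose at 1 h (2.82, adjusted p = 0.00637) and was still higher at 5 h (1.07, adjusted p = 0.00927), a course close to that of Egr1. Klf10, a TGF-β-inducible factor, fell by 3.38 at 5 h (adjusted p = 0.000404), and Klf13 and Klf16 each fell by 1.45 (adjusted p = 0.000903 and 0.00129). Klf3 was higher at 5 h (1.00, adjusted p = 0.0442). These 5 h calls held after median centring (Klf10 at −2.61, Klf13 and Klf16 at −0.69) and quantile normalization. Over the 7 genes the median change was −0.11 at 1 h and −0.03 at 5 h, the latter 0.73 after centring and 0.62 after quantile normalization. Nr4a2, the relative of Nr4a1, was at 0.53 and 0.23, and Klf17 at −0.11 and −0.03, and neither passed at either time.

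Genes that act with or upstream of the members were counted from lists written with earlier results of these data known; their counts after rescaling were added after the values were seen. The counts at 5 h stand beside 49.8% of all probe sets called lower and 20.8% higher as deposited, 24.4% and 41.3% after centring, and 36.8% and 28.9% after quantile normalization. At 1 h 4.6% were called lower and 5.32% higher. Of the EGR corepressors and serum response factor machinery, 8 of 10 genes were tested: Ets2 (2.72) and Elk3 (0.82) rose at 1 h and none fell, and at 5 h Ets2 (1.76) and Nab1 (0.74) were higher and Mrtfa (−2.31), Elk4 (−1.82) and Elk3 (−1.64) lower. Nab2, the corepressor that EGR proteins induce, was at 1.06 at 1 h and Srf itself at 0.66, and neither passed (adjusted p = 0.126 and 0.0623). The list's median was 0.56 at 1 h and −0.17 at 5 h (0.59 centred, 0.42 quantile), and after median centring or quantile normalization 4 of its genes were higher and 3 lower at 5 h. Of the ERK5, MEF2 and FOXO genes known to act on Klf2, Klf4 and Nr4a1, 10 of 13 were tested. Mapk7, which encodes ERK5, and Foxo3 fell at 1 h (−1.34 and −0.76) and none rose. The Foxo3 call at 1 h was lost after median centring (−0.58, limma adjusted p = 0.0808) and quantile normalization (−0.72, adjusted p = 0.0601). All 10 fell at 5 h, with a median of −2.07 against −0.48 for all probe sets. Mef2d (−4.70), Mef2c (−4.17) and Hdac5, which represses MEF2 factors, (−3.57) fell most and Hdac7 least (−0.84). After median centring 6 of the 10 were called lower, with a median of −1.31 against 0.28 for all probe sets, and after quantile normalization 7, with −1.66 against −0.12; Hdac7 (−0.08 and −0.09) and Mapk7 (−0.49 and −0.53) were then not called. Among the NR4A partners and corepressors, 5 of 7 were tested; none passed at 1 h and 4 fell at 5 h, from Rcor1 at −0.79 to the nuclear receptor partner Rxra at −4.62, a bound since 1 of its signals was under the floor. Kdm1a did not pass (0.28). The list's median was −0.40 at 1 h and −2.44 at 5 h. After median centring 3 were lower, without Rcor1 (−0.03), and Kdm1a was called higher (1.04).

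Genes described elsewhere as targets of these factors were counted in the same way. Of the EGR list, 11 of 12 were tested. At 1 h 6 rose, among them the cytokine gene Tnf (6.61), Gadd45b (3.90), Id3 (3.47) and the prostaglandin synthase gene Ptges (3.18), and none fell. At 5 h 7 were higher, led by Ptges (8.01, from 0 h signals under the floor and so a bound), and 2 lower, Vegfa (−2.27) and Tgfb1 (−0.88), the second not called after median centring (−0.11). The list's median was 2.40 at 1 h and 1.25 at 5 h. Of the KLF2, KLF4 and KLF6 list, 7 of 13 were tested. Cdkn1a (1.86), a cell cycle inhibitor, and Cd14 (0.80) rose at 1 h. At 5 h Cdkn1a (1.89), Eng (1.52) and Cd14 (0.80) were higher and Thbd (−3.20), Tgfbr1 (−3.03), S1pr1 (−2.50) and Itgb7 (−0.69) lower; Thbd is a bound, and Itgb7 was not called after median centring (0.08) or quantile normalization (−0.03). The list's median was 0.03 at 1 h and −0.69 at 5 h, the latter 0.08 after centring and −0.03 after quantile normalization. Its counts at 5 h, 4 lower and 3 higher of 7, stand beside 49.8% and 20.8% of all probe sets as deposited. Thbd, which encodes thrombomodulin, and S1pr1, the receptor for lymphocyte exit, are textbook KLF2 targets.

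Klf9 is one of the genes that glucocorticoids induce, and 9 of 11 others listed with it were tested. At 1 h Dusp1 (4.76), Mt2 (2.51), Cebpd (0.91) and Mt1 (0.87) rose and Tsc22d3, which encodes GILZ, fell (−2.21). At 5 h Tsc22d3 (−5.40), the clock gene Per1 (−2.10) and Sgk1 (−1.39) were lower, and Dusp1, Mt2, Cebpd, Nr3c1 and Mt1 were higher, by 4.67, 3.36, 2.47, 1.51 and 1.37. Nr3c1, the glucocorticoid receptor, is in the list but is itself often lowered by its ligand. Sgk1 was not called after median centring (−0.63, adjusted p = 0.0988). The list's median was 0.87 at 1 h and 1.37 at 5 h. Among 16 tested of 18 other immediate early genes, 12 rose at 1 h, from Dusp2 (6.94, a bound) down to Atf3 (1.09), and none fell. At 5 h 10 were higher, and Fosb, which had been 2.81 above 0 h at 1 h, was the 1 gene lower (−0.88, a bound, adjusted p = 0.0145), a call lost after median centring (−0.12) and quantile normalization (−0.51). The list's median was 2.76 at 1 h and 1.11 at 5 h. Fos read 0.20 at 1 h and did not pass. In none of these 8 lists was a gene called between the genotypes.

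Likeness of course was measured as Pearson's r of log2 signal over the 6 arrays, for 7727 probe sets of other genes whose signal ranged at least 2-fold. The arrays share their scaling and the 3 times, and r is a description. Egr1 was most like Klf7 (0.9965), Pvr (0.9955) and Icosl (0.9936), and Egr2 most like Extl2 (0.9934), Pofut2 (0.9908) and Cks2 (0.9884). Extl2 changed less, by 1.40 at 1 h and −1.26 at 5 h. Nr4a1 was nearest to Ptger4 (0.9937), a prostaglandin E2 receptor gene, Rrad (0.9933) and Tlr2 (0.9932). Klf2 was nearest to Spred2 (0.9944), an inhibitor of ERK signalling, Tsc22d1 (0.9918) and Cdk5r1 (0.9895). These 3 were lower in knockout cells at 5 h, by −0.72, −1.25 and −0.65. They were picked for likeness to Klf2 on these same arrays, so this is no separate result. Egr3 was nearest to Bcl2l1 (0.9877), Sertad2 (0.9791) and Papss2 (0.9628), and Klf4 to Peak1 (0.9770), Trp53rka (0.9721) and Uap1 (0.9618). Klf6 was nearest to the cytokine genes Il6 (0.9994) and Il10 (0.9994) and to Cflar (0.9993), and Klf9 to Ergic3 (0.9998), Marveld1 (0.9994) and Kif9 (0.9990). Among the members' brightest probe sets the highest r was 0.94, between Egr2 and Klf2, followed by 0.93 between Egr1 and Nr4a1, and the lowest was −0.81, between Klf6 and Klf9.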

How the data were processed

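RNA was measured on 6 Affymetrix mouse arrays. Their values are intensities that the authors computed with MAS5, per the submitters' processing notes, and deposited on a linear scale for 22690 probe sets; the labels give no MAS5 version or scaling target. Gene symbols came from the platform annotation (20380 probe sets with 1 symbol, 691 with several, 64 controls, 1555 with none). Signals were floored at the 25th percentile of all values (18.2) and log2 taken; no array depth exists, and the number of arrays limits the precision. Probe sets above their array's median on at least 1 array (13101, controls left out) were fitted in R 4.3.3 by limma 3.58.1 on additive effects of genotype and time (2 residual degrees of freedom, prior 2.23), and called where the Benjamini-Hochberg adjusted p was under 0.05. The fit was tested on simulated data. Named are all members, led by their brightest probe set, the tested genes of their families, the extreme and some further members of each list, and for likeness the 3 highest r; Nab2, Srf, Kdm1a, Fos and other list members that are not extremes were chosen after their values were seen. The members and lists were chosen with earlier results of these data known. Alternatives were other scalings, floors, filters, 1 probe set per gene (the brightest), a robust trended prior and leaving out each array.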

Additional observations from a re-analysis of the deposited data

Results flagged for a closer look

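On the deposited scale, the LPS change at 5 h had opposite signs in the genotypes for 2 members. Egr3 was 2.01 above 0 h in wild type and −0.28 in knockout, a difference of −2.29 on the log2 scale. Nr4a1 was 0.91 above 0 h in wild type and −0.20 in knockout, a difference of −1.11. Each side is 1 array. The opposite signs depend on the scaling: after median centring the changes were 2.69 and 0.56 for Egr3 and 1.59 and 0.64 for Nr4a1, and after quantile normalization 2.67 and 0.19, and 1.45 and 0.57. The departure of the 5 h genotype difference from that at 0 h and 1 h was tested with limma and did not pass, at −2.72 (SE 0.46, adjusted p = 0.367) for Egr3 and −1.0 (SE 0.19, adjusted p = 0.381) for Nr4a1. The knockout changes are smaller than 1.5-fold; a change of that size on 1 side was taken as enough after the values were seen.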

How the results depend on the processing

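Signals on 6 arrays, with no replicate of any group, limit what these tests can show. The count of members higher at 1 h (8) was 2 without the filter on dim probe sets. Of all probe sets, 147 of 22626 were called higher at 1 h without the filter, and 697 of 13101 with it. The member count was also smaller with any 1 array left out, where calls at 1 h over all probe sets became fewer too. The count lower at 1 h (1) was 0 after median centring, with a floor at the 10th percentile, without the filter and without any 1 array, and 2 with a pseudocount of 16 in place of the floor or a minimum signal of 200. The count higher at 5 h (4) was 7 after median centring and 7 after quantile normalization. The count that rose from 1 h to 5 h (0) was 3 after median centring and 2 without the filter, with the minimum of 200 or with the robust prior. Signs turned for Klf4 1417394_at at 5 h (0.64 centred, 0.52 quantile; −0.31 to 0.06 with 1 array left out), for Klf6 1427742_a_at from 1 h to 5 h (0.58 centred; −0.22 to 0.22) and for knockout minus wild type of Klf6 1433508_at (0.02 centred). With 1 array left out, Egr3 ranged from −0.49 to 2.22 at 5 h and from −2.62 to 0.09 from 1 h to 5 h, and Nr4a1 from −0.15 to 0.85 at 5 h. Knockout minus wild type ranged from −1.20 to 0.37 for Egr3, −0.08 to 0.25 for Klf6 1427742_a_at and −0.04 to 0.23 for Klf9 1428289_at. The causes were not tested.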
